A study of Mus musculus with 54 samples.

Results

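Amino acid transporters and the taurine transporter were examined in the wall of mouse follicles at ovulation. The set holds 10 genes, chosen by symbol from the 25149 genes of the coding tables: *Slc6a6*, *Slc3a2*, *Slc7a1*, *Slc7a5*, *Slc7a8*, *Slc7a11*, *Slc38a2*, *Slc38a5*, *Slc1a4* and *Slc1a5*. All 10 were found in the tables. Follicles of CD-1 mice aged 14 to 16 days were grown ex vivo in alginate, a hydrogel that keeps them round, until day 8 of culture, and then spent 12 h in maturation medium. Both media used in these 12 h held FBS, EGF and recombinant FSH. The post-hCG groups also received hCG, a hormone that acts on the receptor of luteinizing hormone and starts ovulation. Each follicle was then microdissected into an unruptured and a ruptured side, which in the no hCG medium were named putative because no rupture had marked them and they were told apart by the swollen antral cavity with the help of image analysis, and each library was made from 1 side. The 54 libraries fall into 4 groups, with 15 putative unruptured and 14 putative ruptured libraries that saw no hCG, and 12 unruptured and 13 ruptured libraries taken post-hCG. The tissue label reads cumulus-oocyte complex, although by the study's methods these complexes were discarded at dissection. Of 9 oocyte markers, all had a median of 0 TPM in 3 groups and 7 in putative unruptured libraries, where the other two stayed under 1 TPM. The labels do not say whether libraries of a group came from separate animals, so p-values measure the spread between these libraries. By the study's own account, enzymes used for isolation cost the follicles much of their theca, the outer cell layer, which is regained during culture.

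Cells take up amino acids through families of membrane carriers that differ in substrate and driving force. SLC6A6 brings in taurine, an amino sulfonic acid that serves as an osmolyte and is abundant in reproductive fluids, together with sodium and chloride. SLC3A2 is a heavy chain that carries no substrate itself and brings light chains of the SLC7 family to the cell surface, among them SLC7A5 and SLC7A8, which exchange large neutral amino acids, and SLC7A11, which imports cystine in exchange for glutamate and so feeds the synthesis of glutathione. SLC7A1 carries arginine and lysine, SLC38A2 and SLC38A5 carry small neutral amino acids and glutamine with sodium, and SLC1A4 and SLC1A5 exchange neutral amino acids such as serine and glutamine. In the ovary, granulosa cells take up amino acids for themselves and hand part of them to the oocyte through gap junctions.

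Total counts ran from 1497071 to 2834734 per library. Levels are given as TPM, the authors' unit of transcript abundance scaled by transcript length and library size, so that genes can be set side by side, and differences as log2 fold changes (log2FC) with their standard error (SE) from edgeR's quasi-likelihood test on the counts, with the false discovery rate (FDR) adjusted over all genes tested and a threshold of 0.05. The summed level of 9 granulosa markers was 846 to 5477 TPM in putative unruptured and 3247 to 13713 TPM in putative ruptured libraries, and post-hCG 892 to 1958 TPM in unruptured and 759 to 1411 TPM in ruptured ones. The sum of 10 theca markers was 29.3 to 2787, 4.12 to 570, 72.6 to 1334 and 1.10 to 53.0 TPM in the same order. *Cyp17a1*, *Gli1*, *Insl3*, *Lum*, *Pdgfra* and *Tcf21* of the theca list had a median of 0 in ruptured libraries post-hCG, as had *Gli1* and *Tcf21* in putative ruptured and *Cyp17a1* and *Gli1* in unruptured libraries post-hCG. The 5 immune markers summed to medians of 30.8, 0.620, 12.7 and 0.570 TPM. In such bulk samples, fewer cells of a type and less RNA per cell cannot be told apart. On the log scale, 7 libraries had a theca sum nearer to the median of the other side in the same medium. They were replicate 14 of the putative unruptured side, replicates 1, 5, 11 and 12 of the putative ruptured side, and replicates 4 and 13 of the ruptured side. In addition, replicate 1 of the putative unruptured side had 156.9 TPM of oocyte markers. Each comparison was therefore also fitted without these 8 libraries.

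The summed level of the 10 transporters differed widely between the groups, and 3 genes made up most of it post-hCG. The sum had a median of 284 TPM in putative unruptured and 496 TPM in putative ruptured libraries, against 1572 TPM in unruptured and 2533 TPM in ruptured libraries post-hCG. *Slc6a6* made up a median of 9.14% of this sum in putative unruptured and 14.5% in putative ruptured libraries, and 27.0% in unruptured and 34.5% in ruptured libraries post-hCG. The share of *Slc7a8* went from 11.3% and 26% without hCG to 32.9% and 34.9% post-hCG, while that of *Slc3a2* ranged only from 28.7% to 34.4%. *Slc7a11* and *Slc38a2* moved the other way, from 20.4% and 17.4% of the sum on the putative unruptured side to 0.619% and 1.15% on the ruptured side post-hCG. *Slc7a5*, *Slc38a5*, *Slc1a4* and *Slc1a5* each had a median under 4 TPM in every group.

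**Figure D1:**
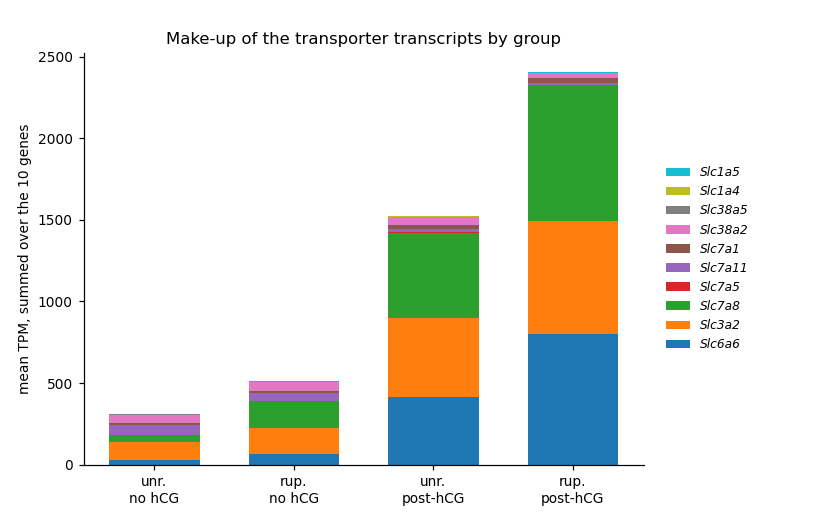
Mean TPM of the 10 transporters stacked by group (y axis, linear, starting at 0), with the putative unruptured and ruptured sides without hCG (15 and 14 libraries) and the unruptured and ruptured sides post-hCG (12 and 13 libraries). *Slc6a6*, *Slc3a2* and *Slc7a8* fill most of both post-hCG bars.

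The taurine transporter *Slc6a6* (ENSMUSG00000030096.8, GRCm38 chr6:91684053-91759066, plus strand) had the most separated levels of the set. The lowest, median and highest values were 11.9, 27.6 and 40.0 TPM in putative unruptured and 42.0, 60.7 and 131 TPM in putative ruptured libraries. Post-hCG they were 204, 431 and 609 TPM in unruptured and 503, 811 and 1054 TPM in ruptured libraries. All 14 putative ruptured libraries were above all 15 putative unruptured ones, every post-hCG library was above every library without hCG of its side, and only post-hCG did the sides overlap, with 11 of 13 ruptured libraries above the highest unruptured one. Such a separation upward was seen for 0.0304% of 9875 genes averaging 1 TPM or more between the sides without hCG, and for 3.71% of 9990 and 3.1% of 9702 genes between the media of the unruptured and the ruptured side.

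With hCG, *Slc6a6* rose 16.6-fold on the unruptured side (log2FC 4.05, SE 0.17, FDR 4.80e-19, edgeR) and 16.4-fold on the ruptured side (log2FC 4.04, SE 0.15, FDR 3.39e-21). Ordered by size of the log2FC in either direction, it stood at rank 60 of 9320 and rank 119 of 8531 genes. The response did not differ between the sides beyond the error, with a difference in log2FC (ruptured minus unruptured) of -0.02 and a 95% interval, 1.96 SE to either side, of -0.41 to 0.37 (interaction term, FDR 0.973). *Slc6a6* was also 2.18-fold higher on the putative ruptured than on the putative unruptured side (log2FC 1.12, SE 0.14, FDR 1.39e-06), and 2.14-fold higher on the ruptured than on the unruptured side post-hCG (log2FC 1.10, SE 0.14, FDR 6.43e-07). Both media responses therefore started from levels that already differed by side. Without the 8 libraries that stood apart by their markers, the log2FC was 4.07 and 4.02 for the media and 1.20 and 1.15 for the sides. Most of these libraries were left out for their theca sum, so this fit widens the theca contrast between the sides. It is therefore no test of the part of theca in the side differences.

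The granulosa sum, mostly *Inha* (medians of 2594, 9027, 1333 and 1051 TPM), was higher with *Slc6a6* between the sides without hCG. It was lower where *Slc6a6* was higher between the media. Post-hCG its median was 1399 TPM on the unruptured and 1159 TPM on the ruptured side, where *Slc6a6* was higher. Theca and immune sums were lower on the side where *Slc6a6* was higher. *Col3a1* had medians of 381, 17.0, 247 and 3.67 TPM, against theca sums of 531, 35.7, 346 and 4.52 TPM. *Lyz2* had medians of 29.7, 0, 10.5 and 0 TPM, and each other immune marker one under 1 TPM. Of theca genes tested, 6 of 7 were lower on the putative ruptured side and 5 of 5 on the ruptured side post-hCG. The granulosa markers did not move as one. Without hCG, 6 of 8 were higher on the putative ruptured side and *Amhr2* was not (log2FC -0.22, FDR 0.248), and with hCG 6 of 8 fell on each side while *Nr5a2* rose on both (log2FC 2.12 and 1.56) and *Fshr* on the unruptured side (1.6). *Amh* had a median of 0 in all groups and *Cyp19a1* in both post-hCG groups. The part of these markers in the side differences was not tested. Each library carries a label code, and part of the code letters are shared by both sides. No letter is shared by the media, so for every hCG response letter and medium cannot be told apart. Among the 5 and 5 libraries of code letter G, *Slc6a6* was at 26.4 to 33.7 TPM on the putative unruptured and 43.4 to 85.8 TPM on the putative ruptured side, with no overlap, but the difference missed the threshold (log2FC 0.75, SE 0.22, FDR 0.295). In these 10 libraries only 3 of 9068 genes passed it, against 1613 in all 29. Among the 4 and 5 libraries of code letter C post-hCG, *Slc6a6* was at 421 to 609 and 798 to 1054 TPM and passed (log2FC 0.77, SE 0.17, FDR 0.00978).

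By group-centred Pearson's r of log2(TPM + 1) over the 54 libraries, the genes most like *Slc6a6* among 5262 with a mean of at least 5 TPM were *Phf20l1* (r = 0.69), *Rgcc* (r = 0.66), *Nap1l5* (r = 0.64), *Atp6v0e2* (r = 0.64) and *Slc16a13* (r = 0.63). The libraries share depth and scaling, so these values only describe likeness.

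**Figure D2:**
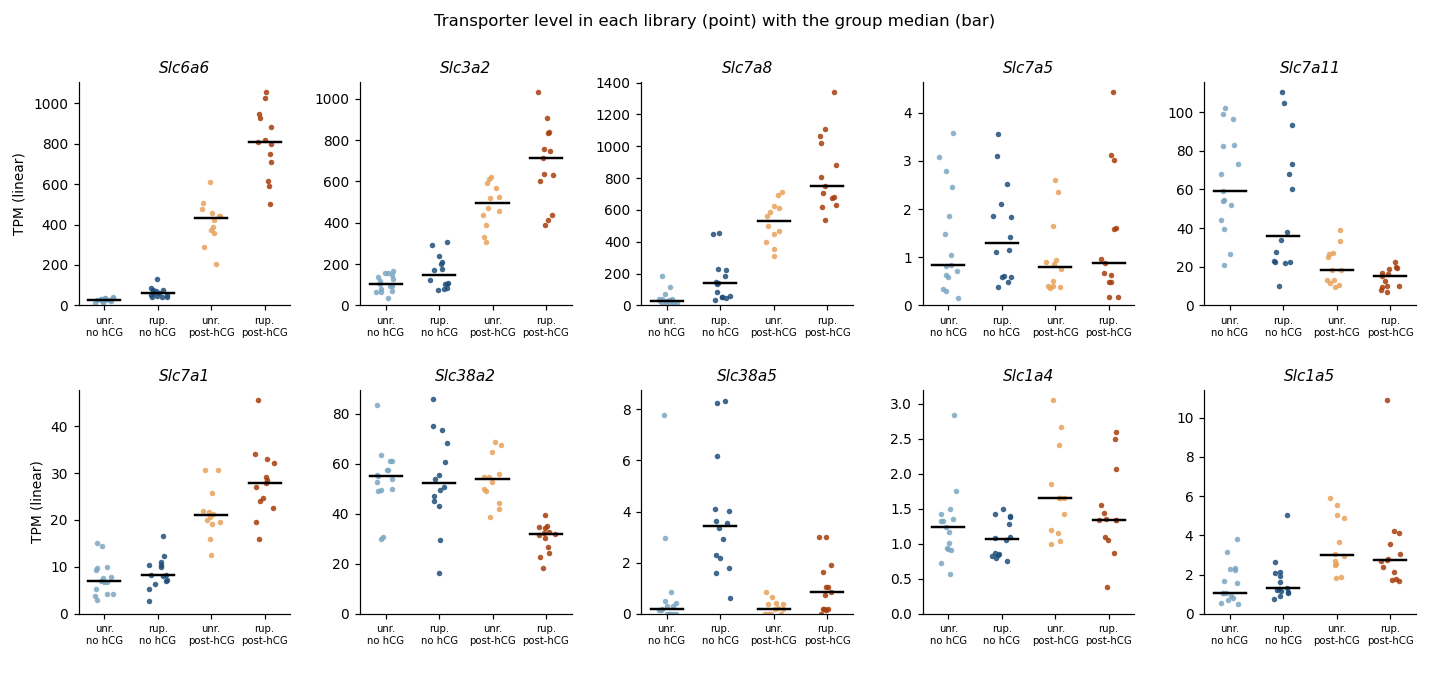
TPM of each transporter in each library (points) with the group median (bar), on a linear axis that starts at 0 and has its own range in each panel, for the unruptured (unr.) and ruptured (rup.) sides without hCG and post-hCG, in 15, 14, 12 and 13 libraries. For *Slc6a6*, *Slc3a2* and *Slc7a8* the post-hCG points of each side lie above all points without hCG, and for *Slc7a11* most post-hCG points lie low.

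The heavy chain *Slc3a2* (ENSMUSG00000010095.13, chr19:8706882-8723369, minus strand) was abundant in all groups. Its lowest, median and highest levels were 37.7, 103 and 168 TPM in putative unruptured and 72.5, 148 and 306 TPM in putative ruptured libraries. Post-hCG they were 308, 496 and 623 TPM on the unruptured and 391, 716 and 1033 TPM on the ruptured side. The media did not overlap on either side, while the sides did, with 7 of 14 putative ruptured and 9 of 13 ruptured libraries above the highest of the other side.

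*Slc3a2* rose 4.85-fold with hCG on the unruptured side (log2FC 2.28, SE 0.17, FDR 3.92e-13, edgeR) and 4.86-fold on the ruptured side (log2FC 2.28, SE 0.17, FDR 2.88e-13). Its level was 1.66-fold higher in putative ruptured libraries (log2FC 0.73, SE 0.20, FDR 0.00764) and 1.65-fold higher on the ruptured side post-hCG (log2FC 0.73, SE 0.11, FDR 1.82e-05). The difference without hCG missed the threshold with limma on log2(TPM + 1) (log2FC 0.53, FDR 0.145).

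The light chain *Slc7a8* (ENSMUSG00000022180.7, chr14:54722209-54781946, minus strand), the exchanger of large and small neutral amino acids, had the widest spread of the members between libraries without hCG on the log2(TPM + 1) scale (SD 1.18 and 1.20). It ran from 7.94 to 182 TPM with a median of 27.6 in putative unruptured libraries and from 32.0 to 457 TPM with a median of 138 in putative ruptured ones. Post-hCG it ran from 311 to 710 TPM (median 530) on the unruptured and from 538 to 1339 TPM (median 749) on the ruptured side. No post-hCG library overlapped with those without hCG of its side, whereas 5 of 14 putative ruptured and 7 of 13 ruptured libraries were above the highest of the other side.

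*Slc7a8* rose 12.0-fold with hCG on the unruptured side (log2FC 3.58, SE 0.35, FDR 3.67e-10, edgeR) and 6.21-fold on the ruptured side (log2FC 2.63, SE 0.30, FDR 4.21e-09). Its level was 3.77-fold higher in putative ruptured libraries (log2FC 1.92, SE 0.40, FDR 0.000913) and 1.95-fold higher on the ruptured side post-hCG (log2FC 0.96, SE 0.15, FDR 1.20e-05). The smaller response on the ruptured side (difference of -0.95, SE 0.46) did not pass the interaction test (FDR 0.197). The 95% interval of that difference ran from -1.85 to -0.05 before adjustment for the number of genes. In code letter G, the side differences of *Slc3a2* and *Slc7a8* were of like size (log2FC 0.95 and 2.47) but missed the threshold (FDR 0.453 and 0.245), and in code letter C both passed (log2FC 0.73 and 0.69, FDR 0.00477 and 0.0347).

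*Slc3a2* and *Slc7a8* also moved together from library to library within groups. With group means subtracted, Pearson's r of log2(TPM + 1) was 0.79 and Spearman's rho 0.83 over 54 libraries (permutation test within groups, two-sided, adjusted p over 4 partners 4.00e-05 for each, the smallest that 100000 resamples can give). Within single groups r was 0.72, 0.93, 0.82 and 0.67, in the order of the groups above. Without the 2 libraries farthest from the median of *Slc3a2* r was 0.77, and on log2 CPM scaled by TMM it was 0.78. For the other light chains r was 0.48 for *Slc7a5* (adjusted p = 0.000680, permutation test), 0.35 for *Slc7a6* (adjusted p = 0.0192, permutation test) and 0.27 for *Slc7a11* (adjusted p = 0.0865, permutation test), with rho of 0.53, 0.31 and 0.24 (adjusted p = 0.000220, 0.0320 and 0.104 by the same permutation test). Beside these, the median r of *Slc3a2* with 5261 other genes of at least 5 TPM was 0.31. On log2 CPM, where that median was 0.06, *Slc7a5* missed the threshold by Pearson's r (r = 0.28, adjusted p = 0.0780, permutation test) and passed by Spearman's rho (rho = 0.32, adjusted p = 0.0425, permutation test), and *Slc7a6* had an r of 0.20 (adjusted p = 0.142, permutation test). The ratio of *Slc7a8* to *Slc3a2* in TPM had a median of 0.297 and 0.696 without hCG and of 1.04 and 1.27 post-hCG, with unruptured sides named first.

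**Figure D3:**
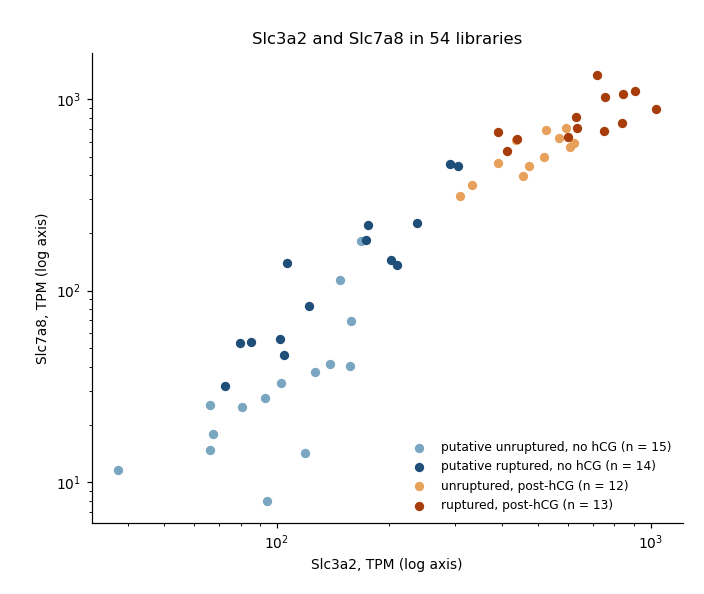
TPM of *Slc3a2* (x axis) against *Slc7a8* (y axis), both on log axes, with one point for each of the 54 libraries coloured by group. The points rise together within each group, and all post-hCG points lie above 300 TPM on both axes.

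Stretches before RefSeq starts of these genes are printed because *Slc3a2* and *Slc7a8* moved together while *Slc7a11*, another light chain, went the other way with hCG. They were read from RefSeq promoters (GRCm38.p6), which matched 7 of the 10 members (all but *Slc6a6*, *Slc7a5* and *Slc1a5*). Capitals mark matches, on either strand, to TGATGNAA, the core of the amino acid response element bound by ATF4 and C/EBP factors. The sequences are 250 bases each, from the minus strand, at chr19:8713898-8714147, chr14:54781887-54782136 and chr3:50443614-50443863. RefSeq starts differ from the outer ends of the genes given above, and that of *Slc3a2* is an internal start, so its stretch lies inside the gene.
Slc3a2: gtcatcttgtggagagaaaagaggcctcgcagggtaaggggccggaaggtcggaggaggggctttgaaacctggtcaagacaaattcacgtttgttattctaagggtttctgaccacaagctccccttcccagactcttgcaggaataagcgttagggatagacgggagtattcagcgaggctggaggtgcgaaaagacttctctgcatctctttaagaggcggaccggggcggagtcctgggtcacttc
Slc7a8: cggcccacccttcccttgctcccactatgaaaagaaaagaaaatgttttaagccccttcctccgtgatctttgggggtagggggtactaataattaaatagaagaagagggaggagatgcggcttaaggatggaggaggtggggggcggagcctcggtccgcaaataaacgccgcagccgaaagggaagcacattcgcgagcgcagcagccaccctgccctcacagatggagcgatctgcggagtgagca
Slc7a11: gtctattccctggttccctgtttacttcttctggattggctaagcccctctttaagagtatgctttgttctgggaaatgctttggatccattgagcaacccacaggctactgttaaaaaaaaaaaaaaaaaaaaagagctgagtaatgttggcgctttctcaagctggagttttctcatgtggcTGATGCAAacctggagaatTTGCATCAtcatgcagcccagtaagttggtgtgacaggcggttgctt
*Slc7a11* held 2 matches, which begin 66 and 47 bases before its start, one on each strand, and *Slc1a4* held 1 match that begins 4 bases before its start. Over the whole 300-base windows, from 250 bases before to 50 after the start, 2 of 7 members and 3.97% of 32851 promoters held TGATGNAA. The cAMP response element TGACGTCA, which shares no full match with the other motif, was in 0 of 7 members and in 1.79% of the promoters. A match describes the letters only.

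The cystine and glutamate exchanger *Slc7a11* (ENSMUSG00000027737.10, chr3:49892526-50443614, minus strand) was lower post-hCG. Its lowest, median and highest levels were 20.7, 59.4 and 102 TPM in putative unruptured and 10.3, 35.8 and 111 TPM in putative ruptured libraries. Post-hCG they were 9.56, 18.5 and 38.8 TPM on the unruptured and 7.09, 15.3 and 22.5 TPM on the ruptured side. The media overlapped on both sides, with 7 of 12 and 5 of 13 post-hCG libraries below the lowest without hCG.

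*Slc7a11* fell with hCG by 1.57 on the log2 scale on the unruptured side (SE 0.23, FDR 7.12e-07, edgeR) and fell by 1.42 on the ruptured side (SE 0.20, FDR 2.27e-07). Between the sides its differences were within the error (FDR 0.595 without hCG and 0.854 post-hCG). The ratio of *Slc7a11* to *Slc3a2* in TPM thus had a median of 0.587 and 0.278 without hCG and of 0.0359 and 0.0207 post-hCG. The other large neutral amino acid light chain, *Slc7a5* (ENSMUSG00000040010.10, chr8:121881150-121907694, minus strand), was near the detection limit, with medians of 0.830, 1.30, 0.805 and 0.88 TPM and at most 4.43 TPM in any library. Of the 4 comparisons of sides or media, it passed the filter on low counts in that of the sides without hCG (log2FC 0.22, SE 0.35, FDR 0.724) and of the media on the ruptured side (log2FC -0.17, SE 0.38, FDR 0.713). With no filter it was tested in all 4 and called in none, with log2FC between -0.47 and 0.51.

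The cationic amino acid transporter *Slc7a1* (ENSMUSG00000041313.14, chr5:148327410-148399904, minus strand) had its lowest, median and highest levels at 2.94, 6.90 and 15.05 TPM in putative unruptured and at 2.70, 8.26 and 16.7 TPM in putative ruptured libraries. Post-hCG they were 12.4, 21.0 and 30.6 TPM on the unruptured and 15.8, 27.9 and 45.5 TPM on the ruptured side. With hCG, 11 of 12 unruptured and 12 of 13 ruptured libraries were above the highest library without hCG.

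*Slc7a1* rose 2.98-fold on the unruptured side (log2FC 1.57, SE 0.13, FDR 9.95e-12, edgeR) and 3.78-fold on the ruptured side (log2FC 1.92, SE 0.12, FDR 4.08e-15). The sides without hCG did not differ beyond the error (log2FC 0.02, FDR 0.928). Post-hCG it was 1.28-fold higher on the ruptured side (log2FC 0.36, SE 0.12, FDR 0.0247), but this call was lost among the libraries of code letter C (log2FC -0.0046, FDR 0.99), with library totals as the only scaling (FDR 0.228), with limma on log2(TPM + 1) (FDR 0.0690) and with the replicate number as a block (FDR 0.0559).

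The sodium-coupled neutral amino acid transporter *Slc38a2* (ENSMUSG00000022462.7, chr15:96687392-96699730, minus strand), a gene known to respond to amino acid shortage and to hypertonic stress, did not differ beyond the error among 3 groups and was lower in the other one. Its lowest, median and highest values were 29.9, 55.2 and 83.7 TPM in putative unruptured, 16.4, 52.2 and 86.0 TPM in putative ruptured and 38.6, 53.8 and 68.6 TPM in unruptured libraries post-hCG. In ruptured libraries post-hCG they were 18.3, 32.0 and 39.6 TPM. There, 12 of 13 libraries were below the lowest unruptured library post-hCG.

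*Slc38a2* fell with hCG on the ruptured side by 0.62 on the log2 scale (SE 0.14, FDR 0.000192, edgeR), while on the unruptured side the log2FC was -0.08 (SE 0.11, FDR 0.587). Post-hCG it was 1.45-fold lower on the ruptured than on the unruptured side (log2FC -0.54, SE 0.09, FDR 3.50e-05), and without hCG the sides differed by 0.02 (SE 0.14, FDR 0.954). It was the only one of the 10 members past the interaction test, where 8.91% of all 10013 genes passed (ruptured minus unruptured response -0.55, SE 0.18, FDR 0.0400). This interaction missed the threshold without the 8 libraries that stood apart (log2FC -0.49, FDR 0.0971), with no filter (FDR 0.0951) and with the replicate number as a block (FDR 0.145). In code letter C the side difference stood (log2FC -0.63, FDR 0.0126). The interaction terms of *Slc7a1* (0.34, SE 0.18, FDR 0.251) and *Slc38a5* (-1.19, SE 0.91, FDR 0.465) were within the error.

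The glutamine transporter *Slc38a5* (ENSMUSG00000031170.14, chrX:8271133-8280179, plus strand), whose protein also exchanges protons, was found mainly on the putative ruptured side. The counts summed to 233 over the 14 putative ruptured libraries and to 45 over the 15 putative unruptured ones, and to 16 over the 12 unruptured and 57 over the 13 ruptured libraries post-hCG. In TPM, the median was 0.170 (0 to 7.77) in putative unruptured and 3.44 (0.610 to 8.33) in putative ruptured libraries, against 0.195 (0 to 0.84) in unruptured and 0.860 (0 to 3.02) in ruptured libraries post-hCG. Replicate 15 of the putative unruptured side held 23 of the 45 counts of its group. At such counts TPM did not follow the counts, since 3 counts gave 7.77 TPM in replicate 3 and 23 counts gave 2.95 TPM in replicate 15. The reason was not tested.

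*Slc38a5* did not pass the filter on low counts in any comparison of 2 groups, so the values that follow come from edgeR with no filter. Putative ruptured libraries had more of it (log2FC 2.88, SE 0.46, FDR 5.05e-05), and without replicate 15 of the putative unruptured side the log2FC was 3.72. On the ruptured side it was lower post-hCG (log2FC -1.94, SE 0.38, FDR 7.74e-05). Post-hCG it was higher on the ruptured side (log2FC 1.70, SE 0.51, FDR 0.0240), a call that missed the threshold with all 4 groups in 1 fit (FDR 0.0588). On the unruptured side the media differed within the error (log2FC -0.75, SE 0.65, FDR 0.412). The most like genes by group-centred r over 54 libraries were *Dnajc19* (r = 0.50), *Tsen34* (r = 0.49), *Pparg* (r = 0.49), *Sema3c* (r = 0.49) and *Apoa4* (r = 0.47), all lower than the closest matches of *Slc6a6*.

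The neutral amino acid exchangers *Slc1a4* (ENSMUSG00000020142.12, chr11:20302180-20332713, minus strand) and *Slc1a5* (ENSMUSG00000001918.17, chr7:16781340-16798274, plus strand) were low throughout. *Slc1a5* had medians of 1.08 TPM in putative unruptured and 1.29 TPM in putative ruptured libraries, and post-hCG of 3.02 TPM in unruptured and 2.75 TPM in ruptured ones, with overlap in all comparisons. It rose 2.65-fold with hCG on the unruptured side (log2FC 1.41, SE 0.20, FDR 8.02e-07, edgeR) and 2.51-fold on the ruptured side (log2FC 1.33, SE 0.15, FDR 3.50e-09). On the ruptured side only 4 of 14 libraries without hCG had at least 10 counts of *Slc1a5*, against 13 of 13 post-hCG. On the unruptured side 9 of 15 libraries without hCG had that many, against 12 of 12 post-hCG. *Slc1a5* thus entered both comparisons mainly through the group where it was higher. *Slc1a4* had medians of 1.24, 1.07, 1.66 and 1.34 TPM in the order of the groups above. It rose 1.5-fold with hCG on the ruptured side (log2FC 0.59, SE 0.17, FDR 0.00424), and on the unruptured side its log2FC of 0.40 (SE 0.17, FDR 0.055) missed the threshold. The first call was lost with library totals as the only scaling (log2FC 0.28, FDR 0.192) and with limma on log2(TPM + 1) (log2FC 0.21, FDR 0.184). The second value passed with all 4 groups in 1 fit (FDR 0.0410) and when replicate 12 or 9 of the unruptured side post-hCG or replicate 5 of the putative unruptured side was left out (FDR 0.0316, 0.0462 and 0.0453).

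Set side by side, the media comparisons called more members than those of the sides, and more of all genes as well. Without hCG, 9 members passed the filter and 3 were called, all higher on the putative ruptured side (*Slc6a6*, *Slc3a2* and *Slc7a8*), where 17.8% of all 9063 genes were called, 8.84% higher and 8.96% lower. Post-hCG, 8 passed and 5 were called, with *Slc6a6*, *Slc3a2*, *Slc7a8* and *Slc7a1* higher and *Slc38a2* lower on the ruptured side, against 21.4% of 8585 genes, 10% higher and 11.3% lower. With hCG on the unruptured side, 8 passed and 6 were called, 5 higher and *Slc7a11* lower, against 53.1% of 9320 genes, 25.4% higher and 27.7% lower. On the ruptured side, 9 passed and 8 were called, 6 higher and *Slc7a11* and *Slc38a2* lower, against 60.1% of 8531 genes, 29.7% higher and 30.4% lower. The median log2FC of the members tested was 0.02, 0.20, 1.49 and 1.33 in this order, and that of all genes was -0.0058, 0.011, -0.030 and -0.0012. These comparisons share groups and are not independent of each other. Without the 8 libraries that stood apart, 3, 5, 6 and 8 members were called. Scaling by library totals alone moved the median of all genes by over 0.1 to -0.14 post-hCG between sides and to -0.25 and -0.33 between media, and called 397 genes higher and 1830 lower, 1455 higher and 3844 lower, and 1376 higher and 4242 lower there, in place of 862 and 971, 2365 and 2582, and 2532 and 2597. With limma on log2(TPM + 1), 214 were higher and 2166 lower, 2207 higher and 1623 lower, and 1568 higher and 3005 lower, so the balance on the unruptured side turned the other way. With library totals alone, *Slc38a2* between the media on the unruptured side had a log2FC of -0.30 (FDR 0.0303, edgeR). That is close to the median of -0.25 of all genes there.

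**Figure D4:**
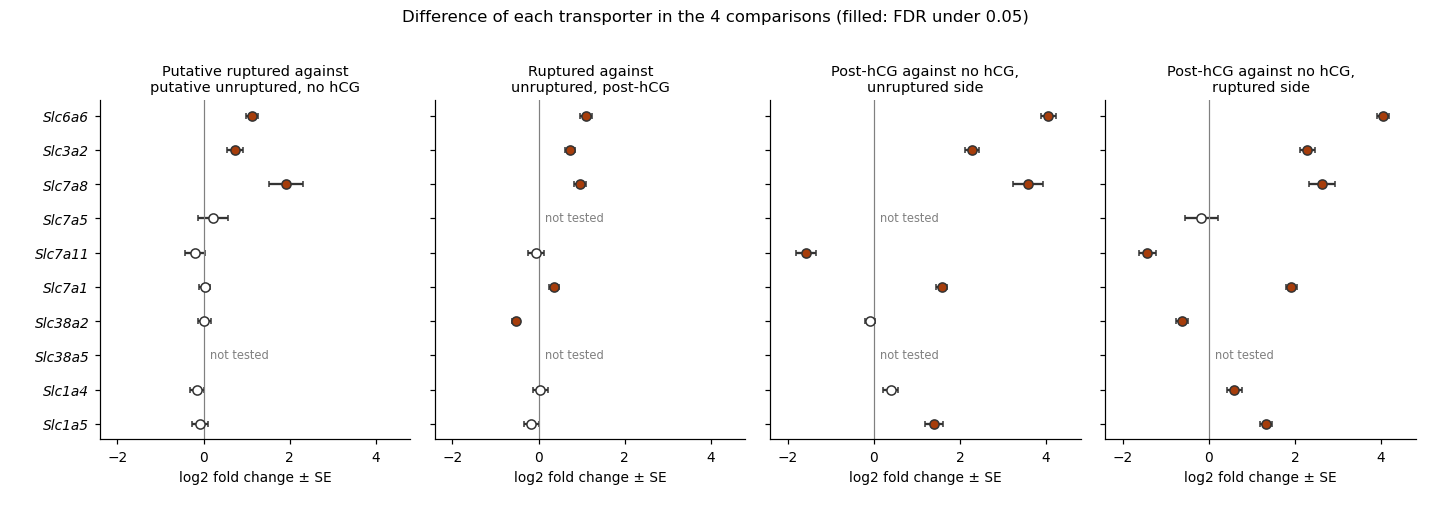
Log2 fold change with its SE (x axis) of each transporter (rows) in the 4 comparisons, filled where the FDR was under 0.05 and marked where a gene did not pass the filter on low counts. *Slc6a6*, *Slc3a2* and *Slc7a8* are filled and above 0 in all 4 panels, and *Slc7a11* is below 0 and filled in both media panels.

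In the order of levels, *Slc6a6*, *Slc3a2* and *Slc7a8* each ran upward from putative unruptured to putative ruptured libraries and then, post-hCG, from unruptured to ruptured ones, with all 3 steps called. *Slc7a1* followed the same order, but its lowest 2 groups did not differ beyond the error. Over all members, 30 pairs of neighbouring groups were compared by edgeR, of which 15 were called, 10 were not and 5 had not passed the filter. The comparisons that cross both side and medium, used only for these neighbours, called 55.8% of 8788 genes (putative ruptured without hCG against unruptured post-hCG) and 59.3% of 9143 genes (ruptured post-hCG against putative unruptured without hCG). For *Slc1a4*, only its middle pair was called, between the ruptured side post-hCG and the putative unruptured side (log2FC 0.45, SE 0.18, FDR 0.0320), and this call was lost with library totals (log2FC 0.08, FDR 0.739) and with limma on log2(TPM + 1) (log2FC 0.11, FDR 0.547). For *Slc1a5* the middle pair, the ruptured side in both media, was called.

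The rest of the amino acid carriers were read from a list. Of 35 further carriers of amino acids, 10 to 12 passed the filter in each comparison. Without hCG, 4 of 11 were higher on the putative ruptured side and 0 lower, among them *Slc6a15*, a transporter of branched-chain amino acids and proline (log2FC 1.22, SE 0.27, FDR 0.00162), *Slc38a1* (0.53, FDR 0.0461), the *Slc3a2* partner *Slc7a6* (0.48, FDR 0.000333) and *Slc38a10* (0.41, FDR 0.00355), all by edgeR. Post-hCG, 1 of 10 was higher on the ruptured side (*Slc7a6*, 0.50, FDR 0.00291) and 1 lower (*Slc7a2*, a cationic amino acid transporter, -0.89, FDR 0.00538). Of all genes, 8.84% were higher and 8.96% lower on the putative ruptured side, and 10% higher and 11.3% lower on the ruptured side post-hCG. The post-hCG counts are thus near the shares of all genes.

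With hCG, 4 of 11 of these carriers rose and 3 fell on the unruptured side, with a median log2FC of 0.21, and 5 of 11 rose and 2 fell on the ruptured side, with a median of 0.14. That is 7 of 11 called on each side, near the share of all genes called in these comparisons (53.1% and 60.1%). *Slc7a6* rose on both (log2FC 0.76 and 0.78, FDR 6.43e-09 and 1.78e-06, edgeR), from medians of 39.1 and 51.8 TPM to 64.0 and 73.5 TPM. *Slc38a1* rose as well (0.70 and 0.46, FDR 0.000897 and 0.0300). *Slc6a15* (-0.79 and -1.73, FDR 0.0190 and 1.18e-07) and the aromatic amino acid transporter *Slc16a10* (-0.81 and -1.30, FDR 0.000249 and 7.48e-09) fell. In the interaction test, 0 of 12 passed by edgeR, with an unadjusted p under 0.05 for 2 of them (*Slc16a10* and *Slc6a15*).

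The neighbouring pathways were read from lists of their own. Of 14 genes of taurine synthesis and related transport, 2 to 4 passed the filter. With hCG, 0 of 4 rose and 2 fell on the unruptured side, and 0 of 3 rose and 2 fell on the ruptured side. Of all genes, 25.4% rose and 27.7% fell on the unruptured side, and 29.7% rose and 30.4% fell on the ruptured side. With so few genes tested, these counts and those of the osmotic genes below are not read as a result about the lists. *Csad*, which makes the precursor of taurine from cysteine sulfinate, fell on the unruptured side (log2FC -0.84, SE 0.21, FDR 0.00108, edgeR) and was at 0.18 on the ruptured side (FDR 0.489), and this difference between sides passed the interaction test (1.01, SE 0.30, FDR 0.0259). In TPM its medians lay close together, at 6.61 and 5.88 on the unruptured and 4.65 and 5.41 on the ruptured side, without and with hCG. *Cbs*, an enzyme on the way from homocysteine to cysteine, fell on the ruptured side (log2FC -1.84, SE 0.26, FDR 3.17e-07), where it had been higher without hCG (1.24, SE 0.26, FDR 0.00101), and its response was lower on that side (interaction -1.35, SE 0.39, FDR 0.0203). *Ado*, which oxidises cysteamine to hypotaurine, fell on both (-0.50 and -0.28, FDR 0.00381 and 0.0202). Of 6 genes of the osmotic response, 4 passed the filter, and *Slc5a3*, the myo-inositol transporter, rose with hCG on both sides (0.45 and 0.64, FDR 0.00339 and 8.94e-05), while *Nfat5*, the transcription factor of hypertonic stress, rose on the ruptured side (0.64, FDR 1.43e-05) and had a log2FC of 0.25 on the unruptured side (FDR 0.135).

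Of 18 genes of the amino acid response, the program that ATF4 drives when amino acids are short, 8 of 14 rose and 1 fell with hCG on the unruptured side, and 9 of 13 rose and 1 fell on the ruptured side, with median log2FC of 0.47 and 0.45 (edgeR). Of all genes, 25.4% were higher and 27.7% lower on the unruptured side and 29.7% higher and 30.4% lower on the ruptured side, and the list was chosen with earlier results of these data known. The folate enzyme *Mthfd2* rose most of the list on both sides (log2FC 2.0 and 2.40, FDR 1.03e-11 and 1.76e-16), from medians of 3.85 and 4.20 TPM to 17.9 and 19.9 TPM. The serine synthesis gene *Psat1* (1.28 and 1.76, FDR 2.66e-05 and 1.66e-08), the mitochondrial serine enzyme *Shmt2* (1.87 and 1.12, FDR 7.57e-12 and 2.64e-09), the asparagine synthetase *Asns* (0.61 and 1.07, FDR 0.000144 and 1.28e-08) and *Atf4* itself (0.64 and 0.64, FDR 1.43e-05 and 1.18e-06) rose too. The gene that fell was *Nupr1*, a stress-induced chromatin protein (-1.14 and -3.75, FDR 0.000489 and 6.23e-11), and the fall was larger on the ruptured side (interaction -2.61, SE 0.44, FDR 9.28e-05). The transporters of the set were not part of this list, and their values with hCG are those given above. Of 12 genes by which mTORC1 senses amino acids, 9 were in the tables and 8 passed the filter. With hCG, 2 rose, 2 fell and 4 were not called on each side, with median log2FC of 0.05 and 0.01. Of all genes, 53.1% and 60.1% were called there, so these counts are not read as a result about the list. *Mtor* (0.44 and 0.45, FDR 0.00242 and 0.00189) and *Rptor* (0.43 and 0.99, FDR 0.0125 and 2.13e-06) rose and *Sesn3* (-1.87 and -1.63, FDR 5.50e-15 and 1.19e-12) and *Flcn* (-0.94 and -1.23, FDR 4.00e-06 and 2.24e-10) fell with hCG on the unruptured and ruptured sides.

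**Figure D5:**
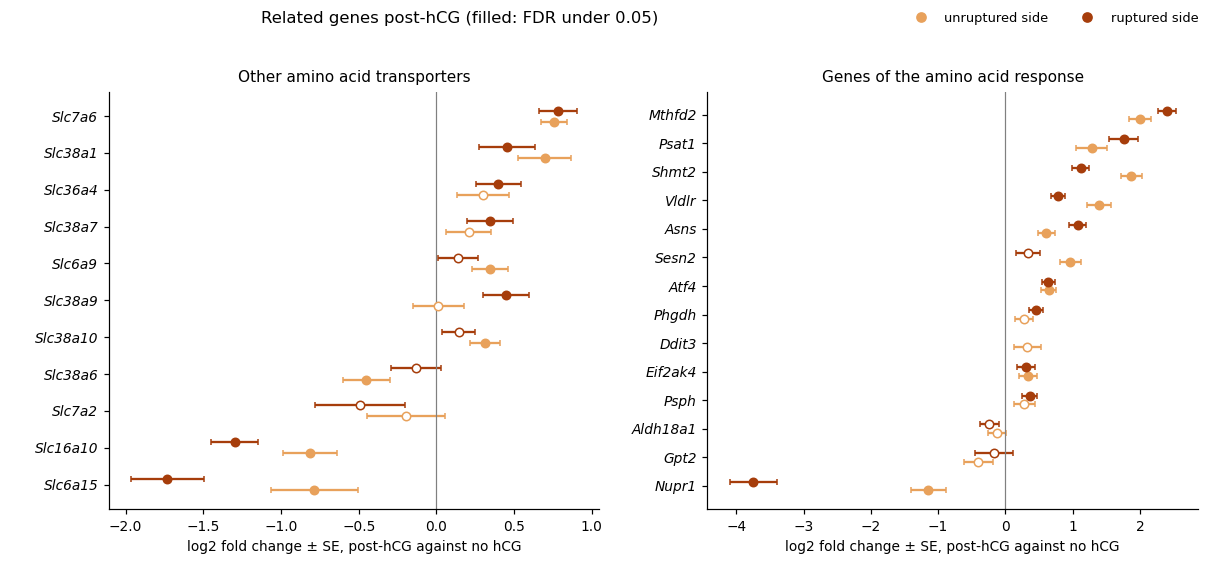
Log2 fold change with its SE (x axis), post-hCG against no hCG, of the other amino acid transporters (left) and of the genes of the amino acid response (right) that passed the filter, for the unruptured side (light) and the ruptured side (dark), filled where the FDR was under 0.05. *Slc7a6* and *Mthfd2* lie highest and *Slc6a15* and *Nupr1* lowest.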

How the data were processed

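RNA of single follicle sides was amplified with Smart-Seq2, and Nextera XT libraries were read from both ends. The authors used HISAT2 on Terra, a public platform, with GRCm38 as the genome, and describe ComBat-seq batch correction. The deposited tables hold estimated counts per gene, not all of them whole numbers, and TPM. The counting program, the annotation, the batches and whether the tables precede batch correction are not given in the sources used here. TPM of the listed genes summed to 585982 to 678417 per library.

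Rounded counts that passed edgeR's filter (at least 10 counts in enough libraries and 15 in all) were normalized with TMM factors. The quasi-likelihood test of edgeR 4.0.16 (R 4.3.3) was fitted to 2 groups at a time, and to all 4 for the interaction of side and hCG. Calls used an FDR of 0.05 over all genes tested. SE was the log2FC divided by the square root of F. DESeq2 1.42.0 and limma 3.58.1 served as alternatives, and correlations used numpy 2.4.6 and pandas 2.3.3. The fitting code was tested on simulated data.

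The members, lists and markers were chosen with earlier results of these data known, and the study itself names *Slc6a6*, *Slc3a2*, *Slc7a8*, *Slc38a5*, *Slc7a6* and *Slc6a15* from these samples. Named were all 10 members, *Slc7a6*, *Slc6a15*, up to 4 other transporters per direction and comparison with the largest log2FC at a mean of 1 CPM or more, genes of the other lists called between media, and the 5 genes most like *Slc6a6* and *Slc38a5*. Positions are from GENCODE on GRCm38.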

Additional observations from a re-analysis of the deposited data

Results flagged for a closer look

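In the main fit, the response of *Slc38a2* to hCG differed between the sides by a test of the difference itself. The log2 fold change, post-hCG against no hCG, was lower on the ruptured than on the unruptured side by a term of -0.55 (SE 0.18, FDR 0.0400, edgeR interaction over 54 libraries). This call missed the threshold in 3 of 10 alternatives, with an FDR of up to 0.145. No group has few enough libraries for the check of single outlying samples. No other member passed the interaction test, which 8.91% of all 10013 genes passed.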

How the results depend on the processing

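Over all alternatives, 548 of 585 values of single genes kept their direction and their side of the threshold, 18 missed it, 5 newly passed it and 14 changed sign. *Slc6a6* kept its call between media under all alternatives (log2FC 3.81 to 4.12 and 3.66 to 4.11). Among libraries of code letter G, 0 members were called between the sides without hCG by edgeR, while 4 members and 866 of 9068 genes had an unadjusted p under 0.05. Between media, sides post-hCG and neighbouring groups, the counts of members called stayed within 1.5 times. The interaction called 0 members with no filter, with the replicate number as a block and without the 8 libraries that stood apart (edgeR, with an unadjusted p under 0.05 for 2, 1 and 1 members, and 1 called by DESeq2), an alternative added after the data had been seen, as was the fit of *Slc38a5* without 1 library. Of the partners of *Slc3a2*, 1 instead of 3 passed by Pearson's r on log2 CPM, and 2 by Spearman's rho.

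Changes of sign were close to 0, in values that had not been called but for *Slc7a1*. For *Slc38a2* between the sides without hCG they were -0.017 with library totals, -0.063 and -0.066 with limma at pseudocounts of 1 and 0.1, -0.015 with the replicate block, -0.046 without the 8 libraries, and -0.030 to 0.10 when single libraries were left out. *Slc38a2* on the unruptured side was at 0.0045 and 0.0050 with limma at these pseudocounts. *Slc7a1* post-hCG was at -0.0046 in code letter C, and *Slc38a5* on the unruptured side at 0.12 with no filter and without replicate 15. Refits without the single library richest in a member's counts, 10 to 13 per comparison, called 3 members between the sides without hCG, 5 between the sides post-hCG, 6 to 7 between unruptured sides of both media and 8 between ruptured sides, and the log2FC of *Slc6a6* was 4.01 to 4.12 and 3.99 to 4.11 between media.

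The labels do not say whether libraries with the same replicate number share a follicle, so the main side tests took them as unpaired. Deviations of same-numbered libraries from their group means had median correlations of -0.048 to 0.055, with up to 0.35 for a single pair. Such values cannot settle whether the numbers mark pairs. With the number as a block, 1405, 1733, 4378 and 4934 genes were called in the 4 comparisons, in place of 1613, 1833, 4947 and 5129, and 712 in place of 892 for the interaction.

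The number of libraries limits small differences, and counts per library limit *Slc7a5*, *Slc38a5*, *Slc1a4* and *Slc1a5*. No code letter occurs in both media, so letter and medium cannot be told apart, nor letter and side outside letters C and G.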
